A study of Homo sapiens with 60 samples.

Results

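STC2, INSIG2, CRYM and PFKFB4 are 4 of the 29744 genes in a deposited count table of HCT116 spheroids, and all 4 were among the 11298 genes with enough counts to be tested. They were chosen from these same data, because in Medium 1 their RNA stood higher with kynurenine than without it, or differed between kynurenine and kynurenic acid. The Medium 1 values of untreated, kynurenine and kynurenic acid spheroids are therefore given as a description without a test, and tests are given only where other libraries enter. HCT116 is a human colorectal cancer cell line, grown here as spheroids in agarose microwells. RNA 3' ends were counted in 60 libraries, 5 for each of 12 combinations of a treatment and a medium. Spheroids were left untreated or, from day 1 to day 8, received kynurenine (1 µM), its product kynurenic acid (1 µM), the short-chain fatty acid butyrate (1 µM), the iron porphyrin hemin (0.1 µM), or kynurenine (1 µM) plus hemin. The sample titles give no separate hemin dose for this combination, and it is taken here as the same 0.1 µM. The study took spheroids either straight from culture or after 3 h in a medium poor in nutrients. Which of these is called Medium 1 and which Medium 2 cannot be read from the labels.

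Kynurenine is a breakdown product of tryptophan that binds the aryl hydrocarbon receptor, a transcription factor that pairs with ARNT and switches on CYP1A1, CYP1B1, TIPARP and AHRR. Kynurenic acid is made from kynurenine by transamination, after which the side chain closes into a quinoline ring. The 4 genes described here have other main roles. STC2 encodes stanniocalcin 2, a secreted glycoprotein that blocks the protease PAPP-A and so the release of insulin-like growth factors, and it is known to be induced by stress of the endoplasmic reticulum and by low oxygen. INSIG2 encodes a protein of the endoplasmic reticulum membrane that holds back SCAP and the SREBP transcription factors of sterol synthesis. CRYM encodes mu-crystallin, which binds thyroid hormone in the cytosol and acts as a ketimine reductase. PFKFB4 encodes a bifunctional enzyme that makes and breaks down fructose 2,6-bisphosphate, the activator of phosphofructokinase in glycolysis, and it is a known target of hypoxia-inducible factors.

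Positions here are RefSeq gene spans, and strands and overlaps are from the GENCODE annotation of GRCh38. INSIG2 lies on the plus strand of chromosome 2 from 118088471 to 118110997, and PFKFB4 on the minus strand of chromosome 3 from 48517684 to 48563136. STC2 lies on the minus strand of chromosome 5 from 173314723 to 173328414, and CRYM on the minus strand of chromosome 16 from 21258521 to 21303062. CRYM overlaps CRYM-AS1 on the opposite strand, which had 59 counts in all libraries together and 0 to 5 in any one. PFKFB4 overlaps UCN2 on the same strand, which had 12 counts in all. Whether counting used strand is not given in the sources used here.

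The 250 bases before the annotated start are shown for the 3 genes that have an entry in the RefSeq promoter table of GRCh38.p14, because the compound that chose these genes is a ligand of a DNA-binding receptor. Capitals mark every match, on either strand, to GCGTG, the core recognised by the aryl hydrocarbon receptor with ARNT, or to ACGTG, the core of hypoxia-inducible factors. The STC2 window is chr5:173328415-173328664, minus strand. The INSIG2 window is chr2:118088221-118088470, plus strand. The PFKFB4 window is chr3:48556804-48557053, minus strand, and lies inside the gene span given above because the start it precedes is not the outermost one.
STC2: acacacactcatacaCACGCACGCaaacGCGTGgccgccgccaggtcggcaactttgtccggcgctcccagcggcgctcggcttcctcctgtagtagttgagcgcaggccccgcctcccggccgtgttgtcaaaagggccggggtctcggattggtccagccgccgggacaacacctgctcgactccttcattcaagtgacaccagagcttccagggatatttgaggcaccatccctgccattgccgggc
INSIG2: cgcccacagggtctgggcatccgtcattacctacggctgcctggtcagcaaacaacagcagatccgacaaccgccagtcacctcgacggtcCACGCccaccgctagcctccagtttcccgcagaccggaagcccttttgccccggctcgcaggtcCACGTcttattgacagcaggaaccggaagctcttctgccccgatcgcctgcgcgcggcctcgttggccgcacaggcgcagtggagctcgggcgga
PFKFB4: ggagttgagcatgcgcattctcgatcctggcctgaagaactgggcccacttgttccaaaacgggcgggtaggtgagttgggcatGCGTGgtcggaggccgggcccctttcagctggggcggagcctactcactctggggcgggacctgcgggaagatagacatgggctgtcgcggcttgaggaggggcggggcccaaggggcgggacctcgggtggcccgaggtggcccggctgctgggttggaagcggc
STC2 held 3 matches to the receptor core, at positions -235, -231 and -222 from the start, of which the first 2 share a base, and none to the hypoxia core. INSIG2 held 1 match to the receptor core at -159 and 1 to the hypoxia core at -95. From a second annotated INSIG2 start, whose window is not shown, the matches lay at -238 and -174. PFKFB4 held 1 match to the receptor core at -166. Of 35116 windows of the same length, 32.2% held the receptor core and 18.5% the hypoxia core. The E-box CACGTG, which contains the hypoxia core, was in none of these 3 windows and in 6.34% of all windows. An element that ATF4 binds with C/EBP proteins, searched on both strands as TGATGNAA, was in none of the 3 and in 3.14% of all. These matches describe the letters in the windows and do not show binding.

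Library totals ran from 1346135 to 3083231 counts, with a median of 1901981. Levels are given in CPM, in which each count is scaled by the total of its library and by its TMM factor. A count at the 3' end stands for about 1 transcript whatever its length. Counts per library were 76 to 533 for STC2, 21 to 160 for INSIG2, 7 to 45 for CRYM and 4 to 73 for PFKFB4, so the last 2 genes carry the most counting error. Of 12 markers of epithelial or colorectal cells, 9 were found in all 60 libraries, including EPCAM, KRT8, KRT18 and CDX2, while VIL1 had no count. Of 18 markers of other cells (fibroblasts, blood, vessels), 15 were in the table, none was found in every library, and COL1A2, COL3A1, LUM and CD3E were at 0. COL1A1 was found in 59 libraries and CD68 in 51, and COL1A1 gave 786 of the 1013 counts of these markers. The sum of the markers was 6.09 to 17.9 CPM per library in Medium 1 and 2.6 to 10.5 CPM in Medium 2. COL1A1, the only one with enough counts to be tested, was called lower in Medium 2. Its change was -1.36 on the log2 scale, averaged over butyrate, hemin and hemin with kynurenine. The part of these markers in the differences between media below was not tested. On the first principal component, which otherwise separated the media, the kynurenine library of Medium 2 in well A7 lay at -13.5, on the side of Medium 1, and the other 4 of its group at 8.7 to 23.9. Values with and without it stand below for the comparisons within Medium 2 and the difference between media with kynurenine, and results were recomputed without it and well B2 (butyrate, Medium 1), which earlier results had set apart. Each treatment filled neighbouring wells of the plate, so plate position and treatment, and plate position and medium, cannot be told apart. The labels call the libraries of a group biological replicates, and nothing used here says that they came from separate cultures or days, so a p-value measures the spread between these samples. In such bulk samples, fewer cells that express a gene and less RNA per cell cannot be told apart.

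The genes differed in level and in the order of the groups. STC2 was the most abundant, with a median of 72.7 CPM over the 30 libraries of Medium 1 and 186 CPM over the 30 of Medium 2. Its 6 Medium 2 groups held the 6 highest means, from 217 CPM without treatment to 172 CPM with hemin, then came kynurenine in Medium 1 at 109 CPM, and untreated Medium 1 spheroids were last at 56.2 CPM. The other 3 genes had their highest mean with kynurenine in Medium 1, which is what chose them in part. INSIG2 averaged 49.3 CPM there and 18.9 to 29.1 CPM in the other 11 groups. PFKFB4 averaged 28.1 CPM there and 5.7 to 14.4 CPM elsewhere. CRYM averaged 16.6 CPM there, 11.7 to 16.3 CPM in 10 groups and 6.94 CPM with kynurenic acid in Medium 1, its lowest. Of neighbouring groups in these orders, hemin in Medium 2 and kynurenine in Medium 1 were apart for STC2, and kynurenine and hemin in Medium 1 were apart for INSIG2. All other neighbours had overlapping libraries, CRYM and PFKFB4 included.

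**Figure D1:**
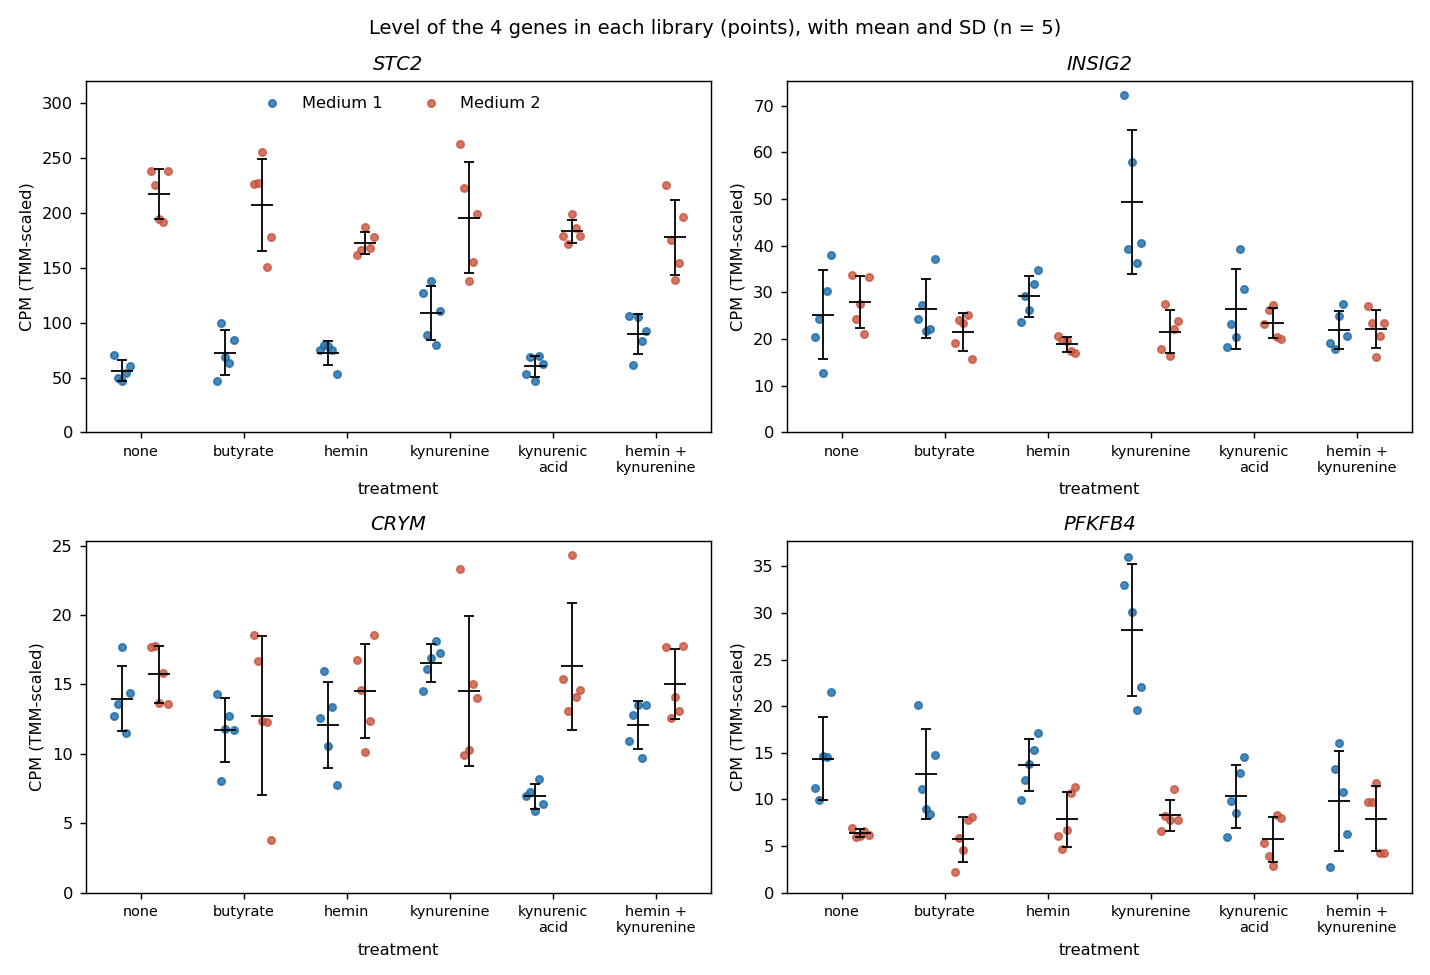
Level of STC2, INSIG2, CRYM and PFKFB4 in CPM (vertical axes, linear, from 0) by treatment (horizontal axes), with 1 point per library, the mean as a bar and the SD over 5 libraries, Medium 1 in blue and Medium 2 in red. STC2 is higher in Medium 2 under every treatment, with group means of 172 to 217 CPM against 56.2 to 109 CPM, while INSIG2 and PFKFB4 have their highest mean with kynurenine in Medium 1.

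STC2 gave the values 70.7, 49.3, 46.5, 53.9 and 60.5 CPM in untreated Medium 1 spheroids and 127, 89.1, 138, 79.7 and 111 CPM with kynurenine. Every kynurenine library was above every untreated one. With kynurenic acid the 5 values were 53.2, 68.3, 47.2, 69.7 and 62.6 CPM, all below those with kynurenine and within the reach of the untreated ones. The fitted log2 fold change, the base 2 logarithm of the ratio of 2 groups, was 0.95 (SE 0.17) for kynurenine over none and -0.85 (SE 0.17) for kynurenic acid over kynurenine. Kynurenic acid over none gave 0.10 (SE 0.18). These 3 differences share libraries, and the first 2 chose the gene.

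INSIG2 had 20.5, 24.4, 12.8, 30.3 and 38 CPM in untreated Medium 1 spheroids, 72.3, 39.2, 58, 36.3 and 40.6 CPM with kynurenine, and 18.4, 23.3, 20.4, 39.2 and 30.7 CPM with kynurenic acid. The highest untreated library was above the lowest one with kynurenine, so these groups overlapped, as did the 2 compounds. Wells H2 and B3 held the 2 highest INSIG2 values, and they held the 2 highest STC2 values of the kynurenine group too. Kynurenine over none was 0.96 (SE 0.20) on the log2 scale, and kynurenic acid over kynurenine was -0.90 (SE 0.20). Kynurenic acid and none differed by 0.07 (SE 0.21).

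CRYM values were 12.7, 13.6, 17.7, 11.5 and 14.4 CPM without treatment, 14.5, 16.1, 16.9, 18.1 and 17.3 CPM with kynurenine, and 6.97, 7.24, 5.9, 8.2 and 6.37 CPM with kynurenic acid. The kynurenine and untreated libraries overlapped, with a log2 fold change of 0.25 (SE 0.23). All 5 kynurenic acid libraries lay below all 5 of kynurenine and all 5 untreated ones, with log2 fold changes of -1.24 (SE 0.25) and -0.99 (SE 0.25). Against untreated spheroids, kynurenic acid separated 0.345% of tested genes downwards in this way. The place of CRYM among the 4 genes rests on a low level with kynurenic acid more than on a high level with kynurenine.

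For PFKFB4 the untreated libraries stood at 11.2, 9.95, 14.7, 14.5 and 21.5 CPM, those with kynurenine at 33, 36, 30.1, 19.6 and 22.1 CPM, and those with kynurenic acid at 5.97, 9.83, 8.58, 12.8 and 14.5 CPM. One untreated library, at 21.5 CPM, reached into the kynurenine group, and none of the kynurenic acid libraries did. The log2 fold change was 0.97 (SE 0.28) for kynurenine over none, -1.44 (SE 0.29) for kynurenic acid over kynurenine and -0.47 (SE 0.31) for kynurenic acid over none. In these chosen comparisons, separation of all libraries was seen for STC2 alone with kynurenine against none, where 0.655% of the tested genes were separated upwards. It was seen for STC2, CRYM and PFKFB4 with kynurenic acid against kynurenine, where 0.513% of tested genes were separated downwards. By the edgeR quasi-likelihood test (Benjamini-Hochberg adjusted) at 0.05, kynurenine against none called 4 genes (0.0354%), CYP1A1 and TIPARP among them. Kynurenic acid against kynurenine called 4 genes lower (0.0354%), the transcriptional repressor gene ZNF503 among them. Calls of members are left out because the choice was made on these comparisons, and nothing is read from these counts. In the same libraries, kynurenic acid less kynurenine was -1.38 (SE 0.30) for CYP1A1, -1.17 (SE 0.28) for CYP1B1, -0.66 (SE 0.21) for TIPARP and -0.44 (SE 0.37) for AHRR. None of these receptor targets was called between the compounds. AHRR gave 0.02 (SE 0.36) for kynurenine over none.

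The combination of hemin with kynurenine offered the same dose of kynurenine to other Medium 1 libraries. STC2 stood at 106, 61.3, 105, 83.4 and 92.5 CPM with the combination and at 74.7, 79.8, 78.9, 75.2 and 53.3 CPM with hemin alone. Of the 5 combination libraries, 4 were above all 5 with hemin and 1 was below 4 of them. INSIG2 stood at 19.1, 17.9, 25, 27.5 and 20.7 CPM with the combination and 23.6, 29.2, 26.3, 31.8 and 34.7 CPM with hemin. PFKFB4 stood at 2.73, 13.3, 16.1, 10.8 and 6.33 CPM against 9.91, 12.1, 13.8, 15.3 and 17.1 CPM. CRYM stood at 10.9, 12.8, 13.5, 9.69 and 13.5 CPM against 12.6, 16, 10.6, 13.4 and 7.77 CPM. All 4 genes had overlapping libraries. STC2 had the higher mean with the combination, INSIG2 and PFKFB4 had the lower one, and CRYM averaged 12.1 CPM in both.

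None of the 4 genes passed the edgeR quasi-likelihood test (Benjamini-Hochberg adjusted) when kynurenine was added to hemin in Medium 1, where 0.0177% of tested genes did. STC2 changed by 0.31 on the log2 scale (95% interval -0.03 to 0.64, adjusted p = 0.439). INSIG2 gave -0.40 (interval -0.82 to 0.02, adjusted p = 0.42). PFKFB4 gave -0.48 (interval -1.09 to 0.13, adjusted p = 0.511) and CRYM -0.01 (interval -0.47 to 0.45, adjusted p = 0.993). The 2 genes that passed were CYP1A1, up by 1.57 (adjusted p = 0.0068), and TIPARP, up by 1.44 (adjusted p = 0.000108), both direct targets of the receptor. Set beside kynurenine alone, the combination gave -1.17 (SE 0.20) for INSIG2, -1.53 (SE 0.29) for PFKFB4, -0.45 (SE 0.23) for CRYM and -0.27 (SE 0.17) for STC2. All libraries were separated downwards for INSIG2, PFKFB4 and CRYM there, as for 0.505% of tested genes. Set beside untreated spheroids it gave 0.67 for STC2, -0.20 for INSIG2, -0.20 for CRYM and -0.56 for PFKFB4. Since the kynurenine and untreated libraries had a part in choosing these genes, both of these comparisons are a description too.

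**Figure D2:**
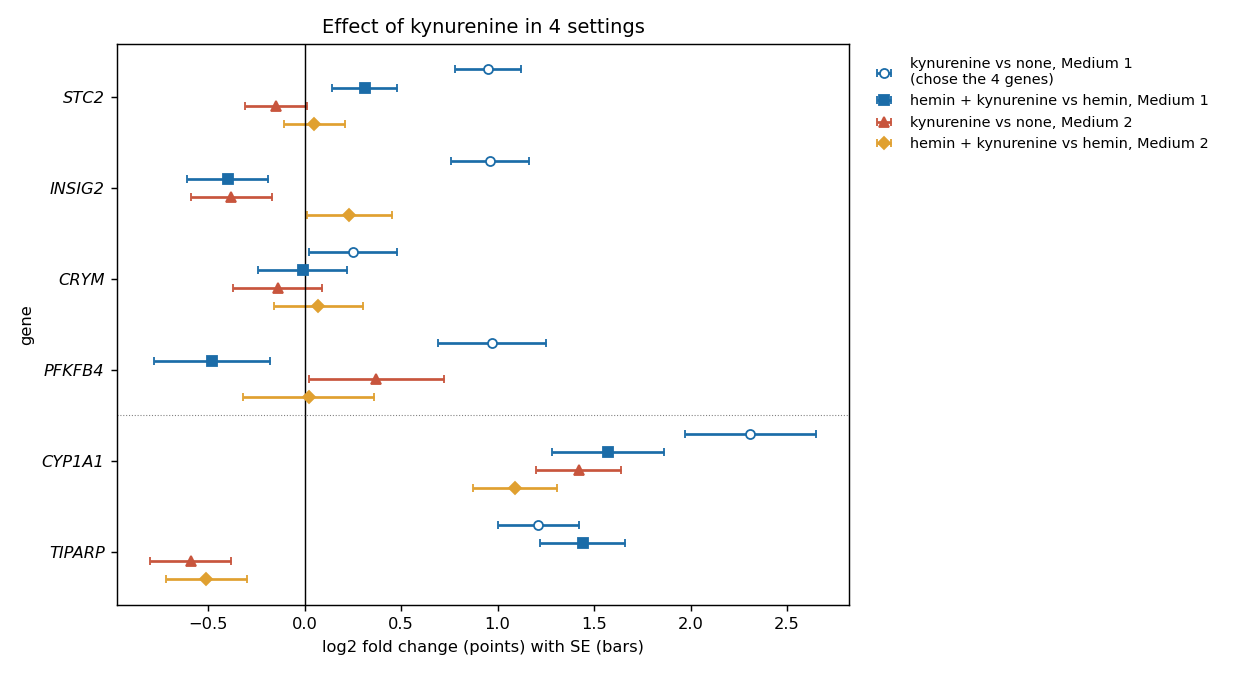
Log2 fold change with kynurenine (horizontal axis, points, bars show 1 SE) for the 4 genes and for the receptor targets CYP1A1 and TIPARP (vertical axis) in 4 comparisons, with open circles for the comparison that chose the genes. The open circles of STC2, INSIG2 and PFKFB4 lie at 0.95 to 0.97 and their other 3 points between -0.48 and 0.37, while CYP1A1 lies at 1.09 or above in all 4. TIPARP lies at 1.21 and 1.44 in Medium 1 and on the negative side in Medium 2, at -0.59 with kynurenine alone.

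In Medium 2, kynurenine alone left all 4 genes short of the threshold by the same test, where 3 genes (0.0266%) passed, CYP1A1 among them with a rise of 1.42 (adjusted p = 0.000148). STC2 stood at 263, 223, 138, 155 and 199 CPM with kynurenine and at 238, 225, 194, 192 and 238 CPM without, a change of -0.15 (interval -0.47 to 0.17, adjusted p = 0.857). The kynurenine libraries spread to both sides of the untreated ones. INSIG2 stood at 17.9, 27.6, 16.3, 22.1 and 23.9 CPM against 33.8, 24.3, 27.5, 21.1 and 33.4 CPM, a change of -0.38 (interval -0.81 to 0.05, adjusted p = 0.752). PFKFB4 had 6.57, 8.27, 7.74, 11.1 and 7.79 CPM against 6.97, 5.94, 6.05, 6.6 and 6.18 CPM, so that 4 of 5 kynurenine libraries were above all untreated ones. Its change was 0.37 (interval -0.33 to 1.08, adjusted p = 0.846). CRYM changed by -0.14 (interval -0.60 to 0.33, adjusted p = 0.918), with libraries at 9.93 to 23.3 CPM against 13.6 to 17.8 CPM. Without well A7 the changes were -0.08 for STC2, -0.39 for INSIG2, -0.15 for CRYM and 0.26 for PFKFB4, and none passed.

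In Medium 2 the libraries with hemin and kynurenine overlapped those with hemin for all 4 genes. Added to hemin, kynurenine changed STC2 by 0.05 (interval -0.27 to 0.37), INSIG2 by 0.23 (interval -0.21 to 0.67), CRYM by 0.07 (interval -0.40 to 0.53) and PFKFB4 by 0.02 (interval -0.66 to 0.70), and the adjusted p (edgeR) ran from 0.651 to 0.99, while 0.434% of tested genes passed. STC2 libraries stood at 139 to 225 CPM with the combination and 162 to 187 CPM with hemin, and INSIG2 libraries at 16.1 to 27 CPM and 17 to 20.6 CPM. Against no treatment the combination called none of the 4 (0.558% of tested genes), with changes of -0.29 for STC2, -0.34 for INSIG2, -0.07 for CRYM and 0.33 for PFKFB4. Hemin and kynurenine together, less the sum of their single changes in Medium 2, gave 0.61 for INSIG2 (interval 0.00 to 1.23, adjusted p = 0.405), 0.20 for STC2, 0.20 for CRYM and -0.36 for PFKFB4. Without well A7 these were 0.61, 0.11, 0.20 and -0.26 in the same order, and none passed. No gene of the table passed that test in edgeR, while 1417 genes (12.5%) had an unadjusted p under 0.05 and DESeq2 called 35.

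Whether kynurenine added to hemin acted differently in the 2 media was tested directly. The difference, Medium 2 minus Medium 1, was 0.63 for INSIG2 (SE 0.30, interval 0.02 to 1.24, adjusted p = 0.199), -0.26 for STC2 (interval -0.72 to 0.21, adjusted p = 0.53), 0.49 for PFKFB4 (interval -0.42 to 1.41, adjusted p = 0.546) and 0.08 for CRYM (interval -0.58 to 0.73, adjusted p = 0.925). None of the 4 passed, and 5.15% of tested genes did. TIPARP did, at -1.95 (adjusted p = 0.000219), since it rose in Medium 1 and stood at -0.51 in Medium 2. The same difference for kynurenine alone was not tested, because its Medium 1 libraries chose the genes.

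Kynurenine and kynurenic acid were set at the same dose and time, which gives 1 pair of related compounds in each medium. In Medium 2, where neither compound's libraries had a part in the choice, no member separated them, and 0.00885% of tested genes passed. Kynurenic acid minus kynurenine was -0.10 for STC2 (interval -0.42 to 0.23, adjusted p = 0.965) and 0.12 for INSIG2 (interval -0.32 to 0.55, adjusted p = 0.968). It was 0.17 for CRYM (interval -0.29 to 0.63, adjusted p = 0.961). It was -0.48 for PFKFB4 (interval -1.20 to 0.23, adjusted p = 0.868), which is not shown to differ from 0. The CRYM libraries with kynurenic acid stood at 15.4, 13.1, 24.3, 14.1 and 14.6 CPM in Medium 2, all above the 5.9 to 8.2 CPM of Medium 1, where 4.57% of tested genes were separated in that direction. PFKFB4 stood at 5.3, 3.94, 2.86, 8.37 and 8.03 CPM with kynurenic acid in Medium 2, below or among its kynurenine libraries. Without well A7 the 4 differences were -0.18 for STC2, 0.11 for INSIG2, 0.17 for CRYM and -0.38 for PFKFB4. A p above the threshold does not show that the compounds act alike, and the intervals give the sizes that remain possible. Kynurenic acid against no treatment in Medium 2 called none of the 4 either (0.0177% of tested genes), with changes of -0.25 for STC2, -0.27 for INSIG2, 0.04 for CRYM and -0.11 for PFKFB4.

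Hemin alone in Medium 2 separated STC2 and INSIG2 libraries from the untreated ones, though neither gene passed. STC2 stood at 162, 166, 187, 168 and 178 CPM with hemin, all below the untreated 192 to 238 CPM. INSIG2 stood at 20.6, 19.9, 19.5, 17.4 and 17 CPM, all below the untreated 21.1 to 33.8 CPM. Both sets of libraries were thus separated, as for 0.832% of tested genes downwards. The change of INSIG2 was -0.57 (interval -1.02 to -0.13, unadjusted p = 0.013, adjusted p = 0.582) and that of STC2 -0.34 (interval -0.66 to -0.01, unadjusted p = 0.0415, adjusted p = 0.639) in edgeR. No gene of the table passed with hemin in Medium 2, where 855 (7.57%) had an unadjusted p under 0.05 and DESeq2 called 0. Butyrate in Medium 2 called no gene in edgeR (401 genes, 3.55%, with an unadjusted p under 0.05, DESeq2 0), and its 4 member changes ran from -0.38 for INSIG2 to -0.07 for STC2. All these Medium 2 comparisons share the untreated libraries. In Medium 1, with the untreated libraries that chose the genes, butyrate and hemin each gave 0.37 (SE 0.17) for STC2, and -0.25 to 0.20 for the other 3.

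Between the media the genes went in different directions. STC2, which is secreted, was the one that rose in Medium 2, under each of the 3 treatments tested. With butyrate its libraries stood at 226, 227, 255, 151 and 178 CPM in Medium 2 and 46.9, 99.6, 69.1, 62.9 and 84.5 CPM in Medium 1. The rise was 1.52 with butyrate (interval 1.18 to 1.85, adjusted p = 1.01e-09), 1.25 with hemin (interval 0.91 to 1.58, adjusted p = 2.21e-07) and 0.99 with both hemin and kynurenine (interval 0.66 to 1.31, adjusted p = 2.07e-05). All libraries were separated in each, as they were upwards for 3.85%, 6.88% and 5.87% of tested genes. Averaged over these 3 treatments the rise was 1.25 (SE 0.10, interval 1.06 to 1.44, adjusted p = 2.63e-16), or 2.38-fold, with all 15 libraries of Medium 2 above all 15 of Medium 1, as for 0.505% of tested genes. Where the choice used the Medium 1 libraries, the difference was 1.95 without treatment, 1.60 with kynurenic acid and 0.85 with kynurenine.

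PFKFB4 and INSIG2 fell in Medium 2 in the mean over these treatments, though not under each of them. PFKFB4 stood at 2.25, 5.9, 4.57, 7.75 and 8.14 CPM with butyrate in Medium 2, all below the 20.1, 11.1, 8.99, 8.45 and 14.8 CPM of Medium 1, and downward separation was seen in 3.65% of tested genes. It changed by -1.14 with butyrate (interval -1.81 to -0.48, adjusted p = 0.0198). With hemin it gave -0.77 (interval -1.43 to -0.11, adjusted p = 0.0792) and with both -0.28 (interval -0.91 to 0.36, adjusted p = 0.594), neither of which passed. The mean over the 3 treatments was -0.73 (SE 0.19, adjusted p = 0.00166). The butyrate call was lost without well F1, D5 or F5 (adjusted p = 0.0502 to 0.0842) and when the 2 groups were fitted alone, at -1.15 (adjusted p = 0.0529). INSIG2 passed with hemin at -0.62 (interval -1.06 to -0.18, adjusted p = 0.0328), where all 5 Medium 2 libraries, at 17 to 20.6 CPM, lay below the 23.6 to 34.7 CPM of Medium 1, as did 5.28% of tested genes. With butyrate it gave -0.30 (adjusted p = 0.389), with both 0.01 (adjusted p = 0.98), and over the 3 treatments -0.30 (SE 0.12, adjusted p = 0.0474). Both INSIG2 calls are near the threshold: the hemin one was lost in 6 of 10 fits that left out 1 library, and the mean in 16 of 30.

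CRYM did not pass between media, with a mean change of 0.22 (SE 0.13, interval -0.05 to 0.49, adjusted p = 0.196), and single values of 0.12 with butyrate, 0.23 with hemin and 0.31 with both. Without well H5, where CRYM was at 3.8 CPM, the mean was 0.30 and passed (adjusted p = 0.0424). In all, 3 of the 4 genes passed in the mean over treatments by the edgeR quasi-likelihood test (Benjamini-Hochberg adjusted), where 35.7% of all tested genes did. The shares for single treatments were 9.89% with butyrate, 23.9% with hemin and 16.3% with both, against 2, 2 and 1 of the 4 genes. Given as values only, the untreated groups differed by 0.15 for INSIG2, 0.18 for CRYM and -1.17 for PFKFB4, and the kynurenine groups by -1.20, -0.21 and -1.76. Without well A7 the kynurenine groups differed by 0.94 for STC2, -1.18 for INSIG2, -0.20 for CRYM and -1.85 for PFKFB4. With kynurenic acid, CRYM differed by 1.21, which goes with its low Medium 1 level.

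**Figure D3:**
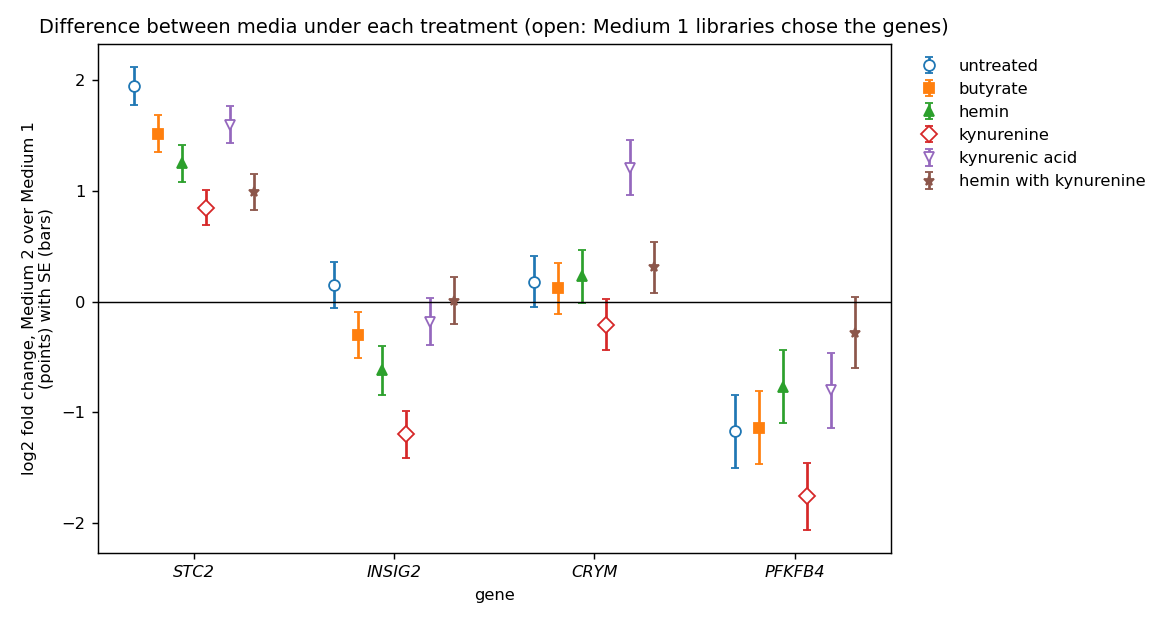
Log2 fold change of Medium 2 over Medium 1 (vertical axis, points, bars show 1 SE) for each of the 4 genes (horizontal axis) under 6 treatments, open where the Medium 1 libraries had a part in choosing the genes. All 6 points of STC2 lie above 0, from 0.85 to 1.95, all 6 of PFKFB4 lie below 0, from -1.76 to -0.28, and those of INSIG2 and CRYM lie on both sides.

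The nearest relatives and partners of the 4 genes were followed from lists that were put together with results of these data known, after taking out the 4 genes. STC1, the other stanniocalcin, was low, with group means of 3.89 to 7.38 CPM, and gave 0.47 (SE 0.34) with kynurenine in Medium 1 and 0.25 (adjusted p = 0.785) when it was added to hemin. Of 16 other genes of the stanniocalcin and insulin-like growth factor list, 9 were measured, and none passed with kynurenine in either medium. In the mean over the 3 treatments IRS1 fell between media, and with hemin alone IGF2 rose by 0.94 (edgeR, adjusted p = 0.0321). INSIG1, the close relative of INSIG2 and itself a target of SREBP, stood at 213 CPM untreated and 199 CPM with kynurenine in Medium 1, against the 25.2 and 49.3 CPM of INSIG2. None of the 37 other genes of SREBP control and sterol synthesis passed with kynurenine alone or added to hemin, in either medium. Of all tested genes, kynurenine alone called 0.0354% in Medium 1 and 0.0266% in Medium 2. Added to hemin, it called 0.0177% and 0.434%. With shares this low, a list without a call says little about its genes, which holds for every list followed here. SCAP, SREBF1 and SREBF2 gave 0.23, 0.23 and 0.12 with kynurenine in Medium 1 and -0.20, 0.57 and -0.16 when it was added to hemin.

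PFKFB3, the relative of PFKFB4 with the strongest kinase side, went the other way from it between media. It rose by 0.56 in Medium 2 over the 3 treatments (edgeR, adjusted p = 5.51e-06), where PFKFB4 fell. Singly PFKFB3 was called with hemin, at 55 CPM in Medium 1 and 103 CPM in Medium 2, but not with butyrate or both. With kynurenine in Medium 1 it gave -0.20 (SE 0.17) and PFKFB2 gave -0.15 (SE 0.29), against 0.97 for PFKFB4. Of 25 other genes of fructose 2,6-bisphosphate control and glycolysis, 22 were measured and none passed with kynurenine in either medium, alone or with hemin. Their median with kynurenine in Medium 1 was 0.17, against 0.001 for all tested genes. Between media, 13 of the 22 rose and 1 fell in the mean over the 3 treatments, among them GAPDH, ALDOA and LDHA upwards. Singly, 12 rose with hemin (12.6% of all tested genes), 1 with butyrate (4.51%) and 5 with both (8.02%). In the mean over the 3 treatments 17.8% of all tested genes rose and 17.9% fell, which is the background for each list count in that mean. INSIG1 and SREBF1 rose between media too, by 0.56 (edgeR, adjusted p = 6.42e-05) and 0.62 (adjusted p = 0.000484), while INSIG2 fell, and of the 37 sterol genes 16 rose and 5 fell in the same mean. Singly INSIG1 and SREBF1 were called with hemin, but not with butyrate or both. For CRYM, 11 of 20 other genes of thyroid hormone handling and ketimine metabolism were measured. None of these passed with kynurenine, alone or added to hemin, in either medium.

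STC2 is on 3 lists of transcription factor targets, those of the aryl hydrocarbon receptor, ATF4 and hypoxia-inducible factors, and PFKFB4 and INSIG2 are on the third. Of 13 other receptor targets, 10 were measured. With kynurenine in Medium 1, 2 were called (CYP1A1 and TIPARP), with a list median of 0.23, and when kynurenine was added to hemin the same 2 were called, with a median of 0.69 against 0.018 for all genes. In Medium 2, 1 was called with kynurenine, CYP1A1, with a list median of 0.02, and 1 when kynurenine was added to hemin, with a median of -0.17. AHRR and CYP1B1 gave 0.79 (adjusted p = 0.633) and 0.82 (adjusted p = 0.347) with kynurenine in Medium 2, and TIPARP gave -0.59 (adjusted p = 0.561). Of 22 other hypoxia-inducible factor targets, 20 were measured and none was called in these comparisons. Their median was 0.37 with kynurenine in Medium 1 and -0.47 for kynurenic acid against kynurenine, in the same libraries that chose the 4 genes, against 0.001 and -0.004 for all tested genes. It was 0.01 when kynurenine was added to hemin and -0.12 with kynurenine in Medium 2. The 24 measured ATF4 targets of 29 had medians of -0.02, 0.08, 0.04 and 0.02 in the same 4 comparisons and none was called. In the mean over the 3 treatments, 16 of the 24 rose and 1 fell between media, and 9 of the 20 hypoxia targets rose and 2 fell. Of the 10 measured receptor targets, 5 rose, CYP1A1, CYP1B1, AHRR and TIPARP among them, and 1 fell, HES1. Beside these stand 17.8% and 17.9% of all tested genes. PFKFB3, LDHA and PGK1 are on both the glycolysis and the hypoxia list. DDIT3, CHAC1 and TRIB3 were among the ATF4 targets that rose in Medium 2 as STC2 did, and VEGFA, ADM and ANKRD37 among the hypoxia targets. The 1 gene of the ATF4 list that fell was ATF4 itself, and the 2 hypoxia targets that fell were KDM4B and ANKZF1.

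The genes whose pattern was most like that of each member were taken by Pearson's r among 8740 genes with a mean of at least 10 CPM. Over the 12 group means, which hold the values that chose the members, STC2 was most like JUNB (0.98), ADM (0.97) and SDC4 (0.97). INSIG2 was most like the glucose transporter gene SLC2A1 (0.90), AREG (0.85) and PDK3 (0.83). CRYM was most like IDH2 (0.83), SPATA2 (0.82) and IGBP1 (0.81), and PFKFB4 like RAB6A (0.95), KRT19 (0.93) and ABCA5 (0.92). Over the 60 libraries with the mean of their medium taken out, STC2 was most like IER3 (0.71), ZNF503 (0.67) and ARRDC3 (0.64), and INSIG2 like ANGPTL4 (0.69), FOSL2 (0.67) and SLC2A1 (0.65). CRYM had weaker partners, TNKS2 (0.51), ADM (0.50) and ANKRD37 (0.48), and PFKFB4 had EGLN1 (0.58), SLC2A1 (0.51) and BNIP3 (0.49). SLC2A1 was thus near both INSIG2 and PFKFB4, though nothing is read from this. Taking out the mean of a medium leaves the differences between treatments in, so the values that chose the members enter here too. These points share treatments, plate and scaling, and the correlations are a description of the libraries.

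Members were last compared within groups, after the mean of its group was taken from each library. Over the 60 libraries the deviations of STC2 and INSIG2 had r = 0.42 and rho = 0.45. These 60 include the 15 libraries of Medium 1 whose values chose the genes, so these values are a description without a test. The test leaves those 15 out and was added after the first values were seen. Over the remaining 45 libraries STC2 and INSIG2 did not pass, with r = 0.33 (permutation within groups, 100000 shuffles, two-sided p = 0.0779, adjusted over 6 pairs 0.234). Their rho was 0.36 (permutation p = 0.039, adjusted 0.166). The r over all 60 was 0.41 without the 2 libraries farthest in STC2 and 0.41 without wells B2 and A7. It was 0.43 in the 30 libraries of Medium 1 and 0.40 in the 30 of Medium 2. The other 5 pairs did not pass over the 45 libraries, and had r from -0.20 to 0.21 over the 60. STC2 and PFKFB4 had r = -0.33 over the 45 (permutation p = 0.0516, adjusted 0.234). INSIG2 and PFKFB4 had r = 0.47 within Medium 1 and -0.22 within Medium 2 (0.21 over all 60). The deviations had r of -0.12 to -0.01 with the logarithm of the library total.

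**Figure D4:**
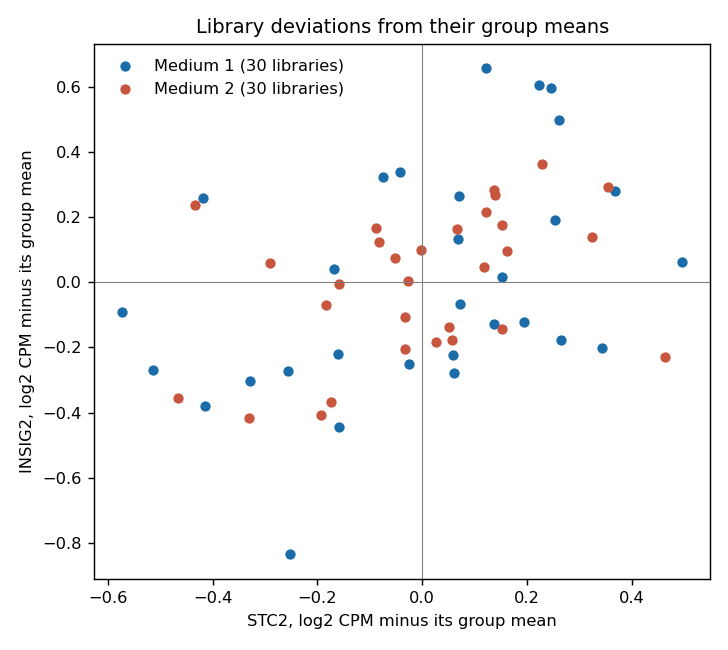
Deviation of INSIG2 (vertical axis) against that of STC2 (horizontal axis), each as log2 CPM minus the mean of its group, with 1 point per library, Medium 1 in blue and Medium 2 in red. The points rise from lower left to upper right with wide scatter, with r of 0.42 over all 60 libraries, 0.43 in Medium 1 and 0.40 in Medium 2. Without the 15 libraries that chose the genes r was 0.33, which did not pass the permutation test.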

How the data were processed

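RNA of 60 HCT116 spheroid samples was sequenced from its 3' ends (QuantSeq kit, molecules marked by identifiers), per the labels' protocols. The authors deposited estimated counts per gene. The submitters' processing notes name FastQC 0.11.9, UMI-tools 1.1.2, cutadapt 3.4, STAR, Salmon 1.5.2 and GRCh38, and the sources used here give no order, settings, gene annotation or use of strand. Of all deposited values, zeros included, 10.1% were fractional estimated counts, and they were rounded here.

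Columns are named by group and plate well, and groups follow the sample titles. Libraries of the same group all differed by more than sampling noise (chi-square per degree of freedom 2.18 to 19.6). Genes were kept by filterByExpr (minimum count 10, minimum total 15), which kept 99.6% of counts, and scaled by TMM. All 60 libraries entered 1 quasi-likelihood model with a mean per group (edgeR 4.0.16, R 4.3.3, 48 residual degrees of freedom, common dispersion 0.0316). Adjustment was by Benjamini-Hochberg over 11298 genes, with a threshold of 0.05 and 95% intervals. Of 23 contrasts, 14 were tested. The other 9 use untreated, kynurenine or kynurenic acid libraries of Medium 1 and have no p for the 4 genes. The same tests were run on simulated data first.

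The 4 genes, the lists and the alternatives were chosen with earlier results of these data known. Named genes were the 4 members; STC1, INSIG1, SCAP, SREBF1, SREBF2, PFKFB2, PFKFB3, CYP1A1, CYP1B1, TIPARP and AHRR whatever their result; up to 3 genes per list that passed; and the 3 genes most like each member by each of 2 measures. Some genes were named outside that rule after their values were seen: ZNF503 as a called gene, and examples of listed genes that passed between media. Alternatives were other size factors, no filter, DESeq2 1.42.0, only the compared groups, plate row as a term, each library left out, and wells B2 and A7 left out. After values were seen, the comparison of deviations within groups was also run without the 15 libraries that chose the genes.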

Additional observations from a re-analysis of the deposited data

Results flagged for a closer look

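Each gene was checked in each group of 5 for a library far from the other 4, in 48 groups in all. Chance flags about 1 in 20 such groups, and 3 were flagged. STC2 with hemin in Medium 1 was at 53.3 CPM (103 counts) in well G2, below the 74.7 to 79.8 CPM of the other 4. CRYM with butyrate in Medium 2 was at 3.8 CPM (7 counts) in well H5, below the 12.3 to 18.6 CPM of the others. CRYM with kynurenic acid in Medium 2 was at 24.3 CPM (34 counts) in well E7, above the 13.1 to 15.4 CPM of the others. What sets these libraries apart was not tested.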

How the results depend on the processing

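No paired analysis was possible because the columns carry no replicate numbers. Over 1020 alternative fits of 56 tested values of the 4 genes, 955 kept their direction and their side of the threshold, 30 lost a call, 1 gained one and 34 changed sign. No fit that changed sign passed the threshold before or after. All 31 changed calls concern Medium 2 against Medium 1. For PFKFB4 with butyrate, fitting only the compared groups gave -1.15 (adjusted p = 0.0529), and leaving out 1 library gave -1.30 to -0.91. For INSIG2 with hemin, plate row as a term gave -0.59 (adjusted p = 0.0594), and leaving out 1 library gave -0.69 to -0.56. For INSIG2 over 3 treatments, the value was -0.30 without a filter (adjusted p = 0.0721) and with plate row (adjusted p = 0.0606), -0.26 without wells B2 and A7 (adjusted p = 0.0978), and -0.33 to -0.26 with 1 library left out. For CRYM over 3 treatments, leaving out 1 library gave 0.17 to 0.30. The changes of sign fell in 13 values, which as reported lie between -0.15 and 0.17. With plate row as a term, kynurenic acid against none in Medium 2 gave -0.14 for CRYM, and kynurenine added to hemin there gave -0.02 for PFKFB4. With DESeq2 or its size factors, INSIG2 with both compounds between media gave 0.00, just below 0. Leaving out 1 library gave the following ranges. For kynurenine added to hemin, CRYM gave -0.13 to 0.12 in Medium 1 and -0.05 to 0.17 in Medium 2, STC2 -0.04 to 0.12 and PFKFB4 -0.18 to 0.17 in Medium 2, and the difference between media for CRYM -0.07 to 0.19. In Medium 2, kynurenic acid against kynurenine gave -0.21 to 0.01 for STC2 and -0.01 to 0.37 for CRYM, and against none -0.14 to 0.09 for CRYM and -0.29 to 0.03 for PFKFB4. Butyrate against none there gave -0.15 to 0.03 for STC2 and -0.32 to 0.06 for PFKFB4. Between media, CRYM with butyrate gave -0.05 to 0.37 and INSIG2 with both compounds -0.07 to 0.10. Apart from the fits with fewer samples, the cause was not tested.

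Counts over all genes moved more. With kynurenine added to hemin in Medium 2, 49 genes became 92 without a filter, 21 with plate row, 182 with only the compared groups, 251 with DESeq2 and 5 to 144 with 1 library left out. The combination against none in Medium 2 went from 63 to 131 with DESeq2 and 15 to 63 with 1 library left out. The difference between media of kynurenine added to hemin went from 582 to 368 with only the compared groups and 61 to 1332 with 1 library left out. For butyrate between media, 1117 became 611 with only the compared groups, 728 with plate row and 701 to 1221 with 1 library left out. Kynurenine against none in Medium 2 went from 3 to 13 and kynurenic acid against kynurenine from 1 to 5 with DESeq2. In Medium 1, the 4 genes of kynurenine against none became 7 with only the compared groups, and the 4 of kynurenic acid against kynurenine became 0 there and 0 to 4 with 1 library left out. Hemin against none in Medium 2 gave 4 with only the compared groups, and the departure from the sum gave 0 to 161 with 1 library left out, the 161 without well F6. By Spearman's rho the nearest genes over the 12 group means were SIAH2 for STC2, LOC100506548 for INSIG2 and PGAM1 for CRYM, none of which is among the 3 nearest by Pearson's r. Low counts limit CRYM and PFKFB4 most, with as few as 7 and 4 counts in a library.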
